A study of Mus musculus with 30 samples.

Results

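The 10 genes described here, Gfap, Aqp4, Slc1a2, Slc1a3, Glul, Aldoc, Gja1, S100b, Fabp7 and Vim, are markers of astrocytes and of radial glia, and they were followed in the primary visual cortex (V1) of mice at postnatal days 14, 28 and 60 (P14, P28 and P60). Every probe set whose array annotation gave one of these symbols alone was taken, which gave 25 of the 36899 probe sets on the arrays. Of these, 21 probe sets, for 9 of the genes, were bright enough to be tested, among 20724 tested in all. Mice were reared under standard conditions, with 3 litters taken at P14, a further 3 at P28 and 4 at P60, and the total RNA of V1 from each litter was hybridised to 3 Affymetrix arrays, called chips A, B and C. Strain, sex and the number of animals in a litter sample are not given in the sources used here. All values are MAS5 signals on a linear scale, the brightness summarised over the probes of a set, and each array had been scaled by the authors to the same trimmed mean. Levels of different probe sets are not comparable with each other, so only ages and litters are compared within a probe set.

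Radial glia are the neural stem cells of the developing cortex. They carry the intermediate filament protein vimentin, encoded by Vim, and the brain fatty acid binding protein encoded by Fabp7, and many of them turn into astrocytes around birth. Maturing astrocytes take up glutamate through GLAST, encoded by Slc1a3, and GLT-1, encoded by Slc1a2, and convert it to glutamine with glutamine synthetase, encoded by Glul. They join into networks through connexin 43, encoded by Gja1, and place the water channel aquaporin 4, encoded by Aqp4, at their contacts with blood vessels. In this bulk tissue, fewer cells of a type and less RNA per cell cannot be told apart.

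The litters were not of even RNA quality. In P14 litter 1 the signal of the 3' probe set over that of the 5' probe set was 9.57 to 12.2 for Gapdh on its arrays, and between 0.741 and 1.32 on the other 27 arrays. Values are therefore also given without that litter where this matters, and for a restricted set of arrays that also leaves out P60 litters 1 and 4 on chips A and B and P60 litter 2 on chip C, the P60 arrays with the lowest mean correlation with the others of their chip. The tissue markers were present, with Snap25, a synaptic release protein gene, between 9055 and 25059 over the litters. Signals stood above background for most sets, since 22 of the 25 member probe sets had age means above the 95th percentile of the Bacillus control probe sets (98.4, 153 and 252 for chips A, B and C), which serves as a measure of background. The other 3, for Aldoc on chip B, for S100b on chip C and the i-type set of Fabp7 on chip C, lay below it at every age.

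Fabp7 and Slc1a3, genes of radial glia and of astrocytes, had lower mean signals in adult than in P14 cortex on both tested probe sets of each. The mean went from 2408 to 779 for Fabp7 and from 2197 to 569 for Slc1a3 on the set with the larger difference. Vim, another radial glia gene, had untested means of 119 at P14 and 237 at P60. For the astrocyte genes Gfap, Slc1a2, Glul, Aldoc, Gja1 and S100b the P14 and P60 litters overlapped on every tested set, and for Aqp4 they were separated on 1 of 3. None of these differences was a call, since no member probe set passed limma with all litters and Benjamini-Hochberg adjustment over all 20724 probe sets at a threshold of 0.05. This held for P28 against P14, where 0.00483% of all tested probe sets passed, for P60 against P28, where 0% did, for P60 against P14, where 0.396% did (0.29% lower at P60), and for the F-statistic over the 3 ages, where 0.111% did. The smallest adjusted p of a member was 0.0514, for Fabp7 between P14 and P60.

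At an unadjusted p under 0.05, 5 of the 21 member probe sets were lower at P60 than at P14 and 0 were higher, where 7.93% and 7.81% of all tested probe sets were. The 5 were both tested sets of Fabp7, both of Slc1a3 and 1 of Aqp4. By the same measure 2 of 21 differed between P14 and P28, against 7.87% of all, both of them for Slc1a3. Between P28 and P60 4 of 21 did, against 5.43% of all, 1 each for Fabp7, Slc1a3, Aqp4 and Gfap. The Gfap set, 94143_at, was bright enough to be tested only through its P60 arrays. The P14 and P60 litters did not overlap in 4 of the 21, all of them lower at P60, where 6.42% of all tested probe sets did not overlap in that direction. None of the 21 was separated in the upward direction, against 6.61% of all. The median log2 change from P14 to P60 over the 21 was -0.23, where that of all tested probe sets was 0.06, and it was 0.10 without P14 litter 1, against 0.02 for all.

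**Figure D1:**
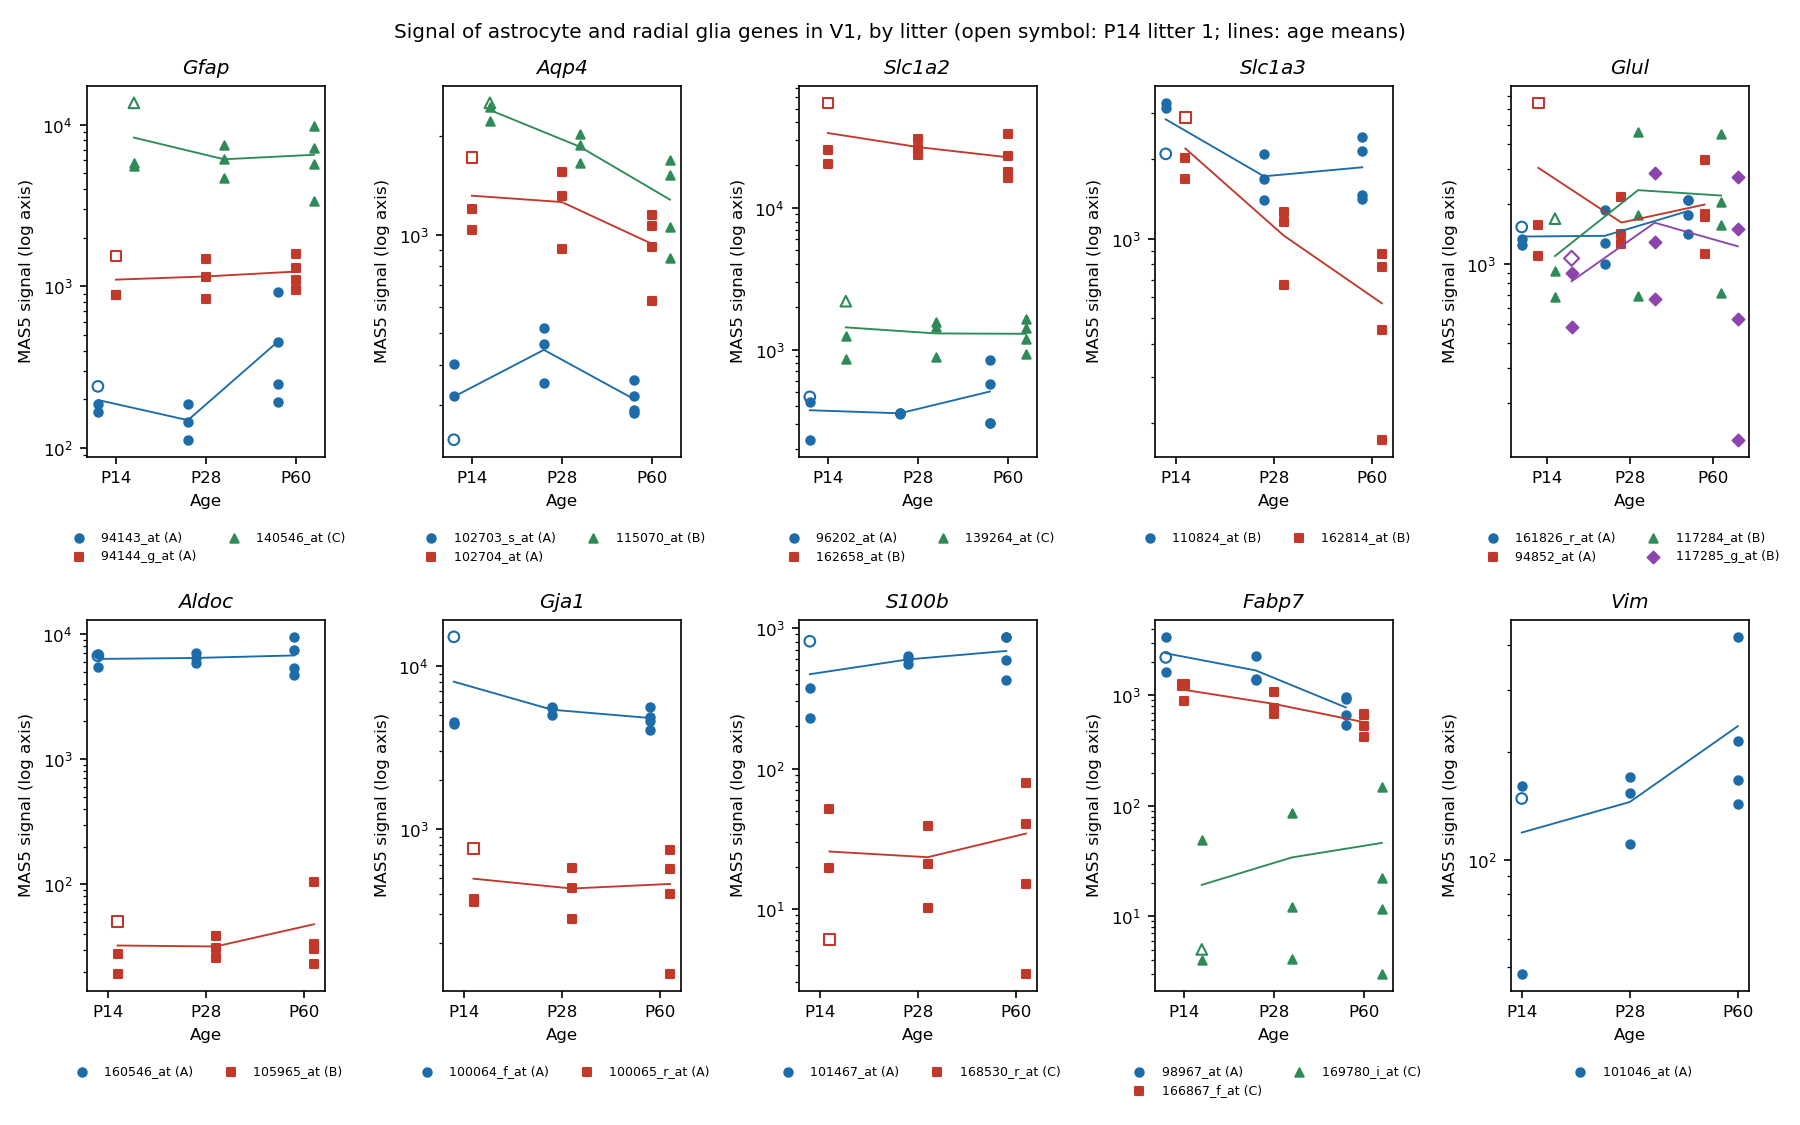
MAS5 signal (log axis) of all 25 member probe sets, 1 panel per gene, against age, with 1 point per litter (3 at P14, 3 at P28, 4 at P60), an open symbol for P14 litter 1 and a line through the age means. Fabp7 on chip A steps down from 2408 at P14 to 779 at P60, and the open symbols for Gja1, Slc1a2, Gfap and Glul stand far above the other P14 litters.

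Fabp7 encodes a protein that carries long-chain fatty acids inside radial glia and young astrocytes. Its chip A probe set, 98967_at, read 2209, 3392 and 1622 in the P14 litters. The P28 litters gave 2269, 1367 and 1415. Values at P60 were 936, 975, 537 and 665. Every P60 litter thus lay below every P14 and every P28 litter, whereas P14 and P28 overlapped. The mean signal was 2408 ± 902 (SD, n = 3) at P14, 1684 ± 508 (SD, n = 3) at P28 and 779 ± 212 (SD, n = 4) at P60. From P14 to P60 the log2 change was -1.56 with a standard error of 0.298 (limma, adjusted p = 0.0514), a signal 2.94 times higher at P14 on the log2 scale with the added constant. By step, the log2 change was -0.48 (adjusted p = 0.769) from P14 to P28 and -1.08 (adjusted p = 0.894) from P28 to P60, and the steps were not tested against each other.

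The call for Fabp7 depended on single litters. Without P14 litter 1 it fell by 1.58 on the log2 scale (limma, adjusted p = 0.029), as 1 of 21 member probe sets, where 1.66% of all tested probe sets fell. In the restricted set of arrays its log2 change was -1.64 (adjusted p = 0.0539). The adjusted p ranged from 0.00505 to 0.161 over the 18 alternatives. P14 litter 1 stood between the other P14 litters, at 0.881 of their mean.

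A second Fabp7 probe set, 166867_f_at on chip C, carries the f suffix, given to sets designed under relaxed rules that may also match relatives of the gene. The g, i, r and s suffixes also mark sets that departed from the standard design, and not always through such matching. It read 1245, 1237 and 894 at P14, 1068, 684 and 763 at P28, and at P60 664, 680, 421 and 527. Here too every P60 litter lay below every other litter. The log2 change from P14 to P60 was -0.93 with a standard error of 0.258 (limma, adjusted p = 0.126). The third set, 169780_i_at, read between 3.02 and 148 with no order by age and was not tested.

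Slc1a3 encodes GLAST, the glutamate transporter of radial glia and of astrocytes, and was measured by 2 probe sets on chip B. Probe set 162814_at read 2881, 2018 and 1690 at P14, 1154, 668 and 1262 at P28, and at P60 452, 872, 778 and 173. All P14 litters lay above all P28 and P60 litters, and the P28 and P60 litters overlapped. Means were 2197 ± 615 (SD, n = 3), 1028 ± 316 (SD, n = 3) and 569 ± 320 (SD, n = 4). The log2 change was -2.0 with a standard error of 0.423 from P14 to P60 (limma, adjusted p = 0.0665), the largest in size among the 21, and -1.07 (adjusted p = 0.602) from P14 to P28. It passed without P60 litter 3, at -2.2 (adjusted p = 0.0466), and not in the other fits that left out 1 litter. In the restricted set it stood at -1.11 (adjusted p = 0.0581), and over the 18 alternatives the adjusted p lay between 0.0022 and 0.196.

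The other Slc1a3 probe set, 110824_at, showed a smaller difference, placed between P14 and P28. It read 2096, 3129 and 3271 at P14, 2090, 1397 and 1682 at P28, and at P60 1464, 2426, 2158 and 1408. P14 litters 2 and 3 stood above all others, and P14 litter 1 lay among the older litters, opposite to its high place on 162814_at. The log2 change from P14 to P28 was -0.69 (limma, adjusted p = 0.55), and from P14 to P60 it was -0.60 (adjusted p = 0.276). In the restricted set it fell by 0.89 on the log2 scale from P14 to P28 (adjusted p = 0.0469), as 1 of 21 member probe sets, where 0.603% of all tested probe sets fell.

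Vim had a single probe set, 101046_at on chip A, which was above the chip's median on 2 arrays and so was not tested. It read 148, 161 and 47.8 at P14, 111, 154 and 170 at P28, and at P60 422, 167, 215 and 143. The ages overlapped, and 1 adult litter, P60 litter 1, was the highest.

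To set the lower adult signals of Fabp7 and Slc1a3 beside the DNA in front of these genes, their promoter windows are shown with that of Gfap, an astrocyte gene without such a difference. Each window runs from 250 bases before to 50 after the gene's start, from RefSeq on the GRCm38.p6 build. The windows are chr10:57784673-57784972 on the plus strand for Fabp7, chr15:8710758-8711057 on the minus strand for Slc1a3 and chr11:102897151-102897450 on the minus strand for Gfap. Capitals mark matches on either strand to TGGGAA, the core letters bound by Rbpj, the DNA-binding partner of Notch, and to TTGGC, the half-site of nuclear factor I proteins, which act in the switch from radial glia to astrocytes.
Fabp7: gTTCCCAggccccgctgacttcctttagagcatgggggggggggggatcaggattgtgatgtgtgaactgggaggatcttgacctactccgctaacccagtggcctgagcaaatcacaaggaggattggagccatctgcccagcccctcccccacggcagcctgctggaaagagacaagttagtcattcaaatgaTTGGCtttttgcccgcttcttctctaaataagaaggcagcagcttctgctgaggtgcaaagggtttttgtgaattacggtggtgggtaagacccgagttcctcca
Slc1a3: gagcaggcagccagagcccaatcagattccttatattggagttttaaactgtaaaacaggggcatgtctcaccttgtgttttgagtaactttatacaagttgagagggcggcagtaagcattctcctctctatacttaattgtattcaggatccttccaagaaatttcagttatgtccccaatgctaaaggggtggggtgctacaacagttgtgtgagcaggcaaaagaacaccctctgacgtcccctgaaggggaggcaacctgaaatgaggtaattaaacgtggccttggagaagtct
Gfap: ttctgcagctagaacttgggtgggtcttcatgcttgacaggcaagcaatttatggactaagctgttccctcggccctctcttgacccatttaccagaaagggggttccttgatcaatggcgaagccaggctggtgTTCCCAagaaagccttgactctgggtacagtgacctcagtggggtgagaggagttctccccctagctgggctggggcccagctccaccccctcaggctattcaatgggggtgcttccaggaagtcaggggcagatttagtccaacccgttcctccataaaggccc

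Fabp7 held 1 match to each motif, Gfap held 1 to TGGGAA and none to TTGGC, and Slc1a3 held neither in this window. Among all 32851 promoter windows of this length, 25.6% held TGGGAA and 46.7% TTGGC. Windows were found for 9 of the 10 genes, 10 windows in all, of which 5 held TGGGAA and 6 TTGGC. The 2 motifs do not overlap in the printed windows.

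Slc1a2 encodes GLT-1, the main glutamate transporter of mature astrocytes. Its chip B probe set, 162658_at, read 55011, 20337 and 25751 at P14, 26104, 30783 and 23611 at P28, and at P60 17769, 33426, 23360 and 16308. P14 litter 1 stood above all others, at 2.39 times the mean of the other P14 litters, and the rest overlapped. From P14 to P60 the log2 change was -0.49 with a 95% confidence interval from -1.25 to 0.27 (limma, adjusted p = 0.511), and -0.07 without P14 litter 1. The other sets, 96202_at on chip A and 139264_at on chip C, had log2 changes of 0.33 (adjusted p = 0.656) and -0.07 (adjusted p = 0.927). On 96202_at the P28 litters were almost equal, at 355, 357 and 353, while P60 spread from 302 to 844.

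Glul, the gene of glutamine synthetase, had 4 probe sets, of which the chip B pair moved alike over the litters. Probe set 94852_at on chip A read 6454, 1093 and 1565 at P14, 2170, 1256 and 1410 at P28, and at P60 1788, 1716, 3321 and 1117. P14 litter 1 was 4.86 times the mean of the other P14 litters, the highest such ratio among the 21 tested sets. Its log2 change over the whole age range was -0.28 with all litters (limma, adjusted p = 0.821) and 0.48 without that litter (adjusted p = 0.478).

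On chip B, Glul probe set 117284_at read 1686, 678 and 916 at P14, 685, 4603 and 1750 at P28, and at P60 712, 4494, 2052 and 1558. Here P28 litter 2 and P60 litter 2 stood far above the others of their age. The related set 117285_g_at repeated this, with 2869 in P28 litter 2 and 2744 in P60 litter 2, and 130 in P60 litter 1. Their log2 changes from P14 to P60 were 0.79 with a 95% confidence interval from -0.58 to 2.15 (limma, adjusted p = 0.554) and -0.01 (adjusted p = 0.998), and these intervals were the widest among the members. In the restricted arrays they stood at 1.87 (adjusted p = 0.157) and 1.53 (adjusted p = 0.158), and 94852_at at 0.85 (adjusted p = 0.206). The r-type set 161826_r_at on chip A lay between 995 and 2095, with a log2 change of 0.40 (adjusted p = 0.419).

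Aqp4 encodes aquaporin 4. Probe set 115070_at on chip B read 2534, 2462 and 2231 at P14, 1888, 2036 and 1654 at P28, and at P60 846, 1697, 1525 and 1054. All P14 litters lay above all others, and P28 overlapped with P60. Means went from 2409 ± 158 (SD, n = 3) over 1859 ± 193 (SD, n = 3) to 1280 ± 398 (SD, n = 4), a log2 change from P14 to P60 of -0.93 with a standard error of 0.231 (limma, adjusted p = 0.105). In the restricted set, without P14 litter 1 and P60 litters 1 and 4, it was -0.53 (adjusted p = 0.127).

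The chip A probe sets of Aqp4 gave other pictures. Probe set 102704_at read 1722, 1198 and 1030 at P14, 904, 1557 and 1315 at P28, and at P60 625, 1062, 915 and 1147. Its log2 change from P14 to P60 was -0.48 (limma, adjusted p = 0.405). The s-type set 102703_s_at lay between 236 and 519, with its mean highest at P28 and a log2 change from P14 to P60 of 0.00069 (adjusted p = 0.999).

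Gja1 encodes connexin 43, the channel of astrocyte gap junctions. Its f-type probe set 100064_f_at on chip A read 15105, 4541 and 4405 at P14, 5564, 5634 and 4988 at P28, and at P60 4080, 4865, 5644 and 4605. P14 litter 1 was 3.38 times the mean of the other P14 litters, and the other 9 litters lay within 4080 to 5644. The log2 change from P14 to P60 was -0.49 with all litters (limma, adjusted p = 0.525) and 0.09 without P14 litter 1, with a 95% confidence interval from -0.26 to 0.44. The other set, 100065_r_at, ranged from 130 to 759 and had a log2 change of -0.23 (adjusted p = 0.837).

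Gfap encodes the intermediate filament protein that marks astrocytes, in the cortex most of all those that react to injury. The chip A set 94143_at read 240, 188 and 166 at P14, 146, 187 and 112 at P28, and at P60 452, 250, 192 and 927. All P60 litters lay above the P28 litters, and P60 litters 1 and 4 were the highest of all. The set was above the chip's median on 4 arrays, those of P14 litter 1 and of P60 litters 1, 2 and 4. It was thus bright enough to be tested only through its P60 arrays. The log2 change was 1.19 with a standard error of 0.42 from P28 to P60 (limma, adjusted p = 0.894) and 0.85 from P14 to P60 (adjusted p = 0.346). In the restricted set, without P14 litter 1 and P60 litters 1 and 4, these were 0.48 (adjusted p = 0.748) and 0.26 (adjusted p = 0.709).

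Its companion set on chip A, 94144_g_at, did not show this. It read 1536, 877 and 883 at P14, 1138, 1477 and 836 at P28, and at P60 1094, 1305, 944 and 1588. The ages overlapped, and the log2 change from P14 to P60 was 0.18 (limma, adjusted p = 0.767). The chip C set 140546_at read 13628, 5538 and 5758 at P14, 7512, 6135 and 4657 at P28, and at P60 5736, 3348, 7137 and 9795. P14 litter 1 was again the highest, and the log2 change was -0.32 (adjusted p = 0.703), and 0.10 without that litter.

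S100b encodes a calcium-binding protein of astrocytes, found also in some cells of the oligodendrocyte lineage. Probe set 101467_at on chip A read 805, 229 and 374 at P14, 602, 557 and 635 at P28, and at P60 866, 429, 591 and 862. Without the first litter, both P14 values lay below all older ones. The log2 change from P14 to P60 was 0.63 with a standard error of 0.354 (limma, adjusted p = 0.403), and 1.07 without P14 litter 1 (adjusted p = 0.0659). From P14 to P28 it was 0.49 with all litters (adjusted p = 0.804), 0.94 in the restricted set (adjusted p = 0.0768) and 0.108 without P14 litter 2 (adjusted p = 0.945). P14 litter 1 was 2.67 times the mean of the other P14 litters.

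Aldoc encodes aldolase C, the aldolase of brain glycolysis, which is abundant in astrocytes. Probe set 160546_at on chip A read 6668, 5396 and 6849 at P14, 5854, 6996 and 6415 at P28, and at P60 4651, 9464, 7487 and 5295. The ages overlapped. Between P14 and P60 the log2 change was 0.04 with a 95% confidence interval from -0.50 to 0.59 (limma, adjusted p = 0.944). The second set, on chip B, stayed below the Bacillus controls.

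**Figure D2:**
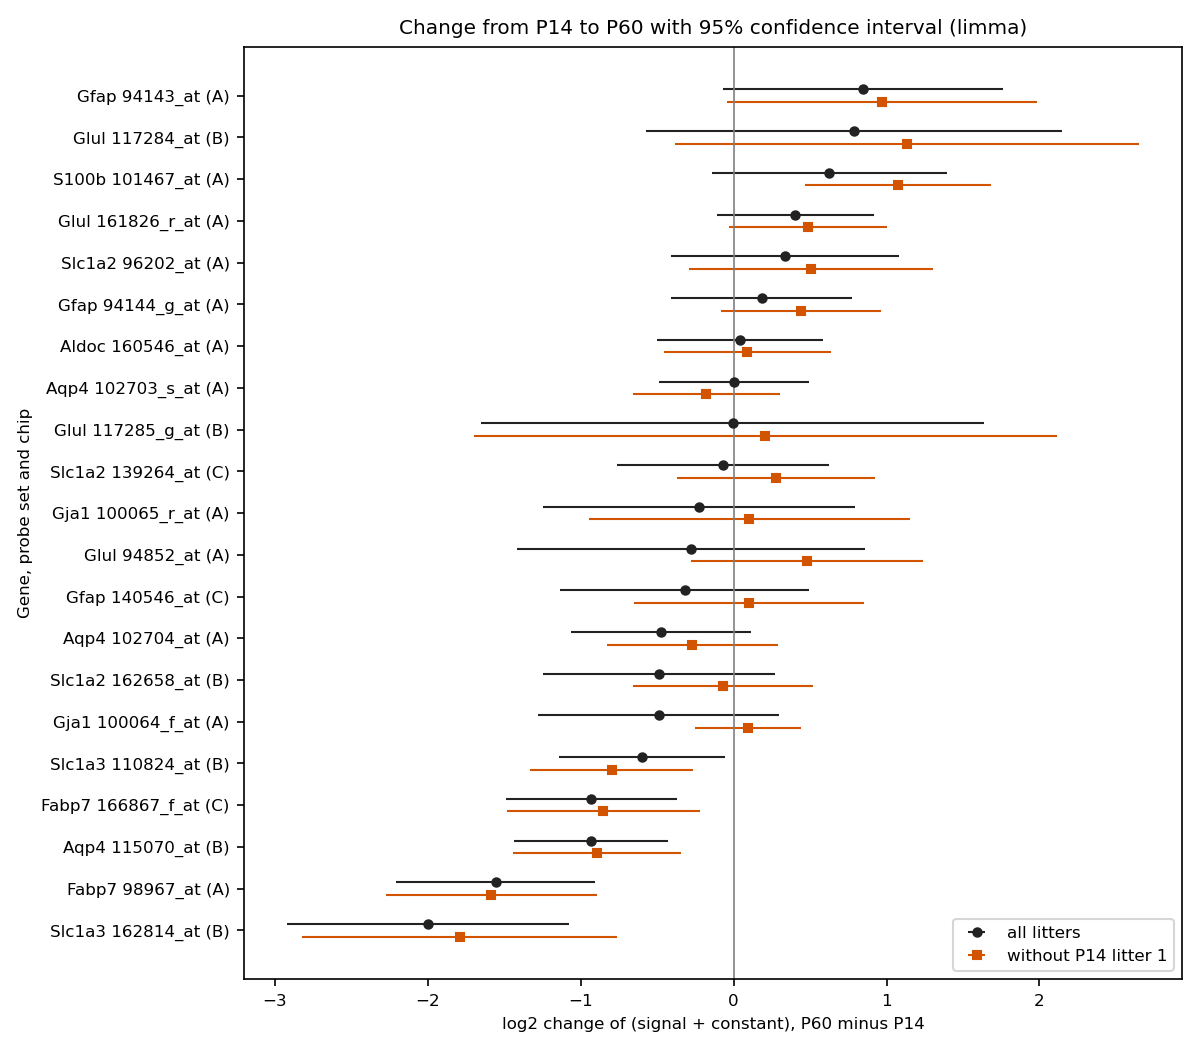
Log2 change of the signal plus a constant from P14 to P60 for the 21 tested member probe sets, with 95% confidence intervals from limma, for all 10 litters (black circles) and without P14 litter 1 (orange squares). Slc1a3 162814_at, Fabp7 98967_at, Aqp4 115070_at, Fabp7 166867_f_at and Slc1a3 110824_at lie below 0 with their whole intervals in both fits, and several sets near the middle change side.

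P14 litter 1 and the P60 litters touched many members. P14 litter 1 was above the 9 other litters in 10 of the 21 tested member probe sets, where this was so in 20.7% of all tested probe sets, and below them in 1, against 23.8%. The 10 sets were of Gfap (140546_at), Aqp4 (102704_at and 115070_at), Slc1a2 (162658_at and 139264_at), Slc1a3 (162814_at), Glul (94852_at), both of Gja1 and the f-type set of Fabp7. Without that litter the member probe sets with a negative log2 change from P14 to P60 numbered 8 of 21, against 13 with it. Of all tested probe sets 48.1% had a negative change without that litter and 45.2% with it. Its high ratio of 3' to 5' signal was measured on the same arrays, and its part in these values was not tested.

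Among the P60 litters, litters 1 and 4 were both below litters 2 and 3 in 10 of the 21 member probe sets, against 24.8% of all tested probe sets, and both above in 5, against 24.4%. The 5 higher ones were Gfap 94143_at, Slc1a2 96202_at, Glul 161826_r_at, Gja1 100065_r_at and S100b. The lower ones included both Slc1a3 sets, Aqp4 115070_at and Aldoc. On chips A and B these litters had the lowest array correlations of the P60 group, whereas on chip C litter 2 had, and whether animals, dissection or RNA differed was not tested.

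With limma's array weights, which gave P14 litter 1 weights between 0.105 and 0.354 over the chips, 5 member probe sets passed as lower at P60 than at P14 and 2 as higher, where 9.4% and 8.07% of all tested probe sets passed. The weights also differed among the P60 litters. On chip A litters 2 and 3 had 0.538 and 0.51, and litters 1 and 4 had 0.775 and 1.26. On chip B litters 2 and 3 had 0.45 and 0.342, and litters 1 and 4, left out of the restricted set, had 1.31 and 1.15. The lower ones were both sets of Slc1a3, both of Fabp7 and Aqp4 115070_at. The higher ones were S100b, at a log2 change of 1.15 (adjusted p = 0.00754), and Gfap 94143_at, at 1.27 (adjusted p = 0.0245). That Gfap set was bright enough to be tested only through its P60 arrays, the group in which it is high. In the restricted set the changes of both Slc1a3 sets, Aqp4 115070_at, Gfap 94143_at and S100b were smaller in size than with array weights. Those of both tested Fabp7 sets were larger there.

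**Figure D3:**
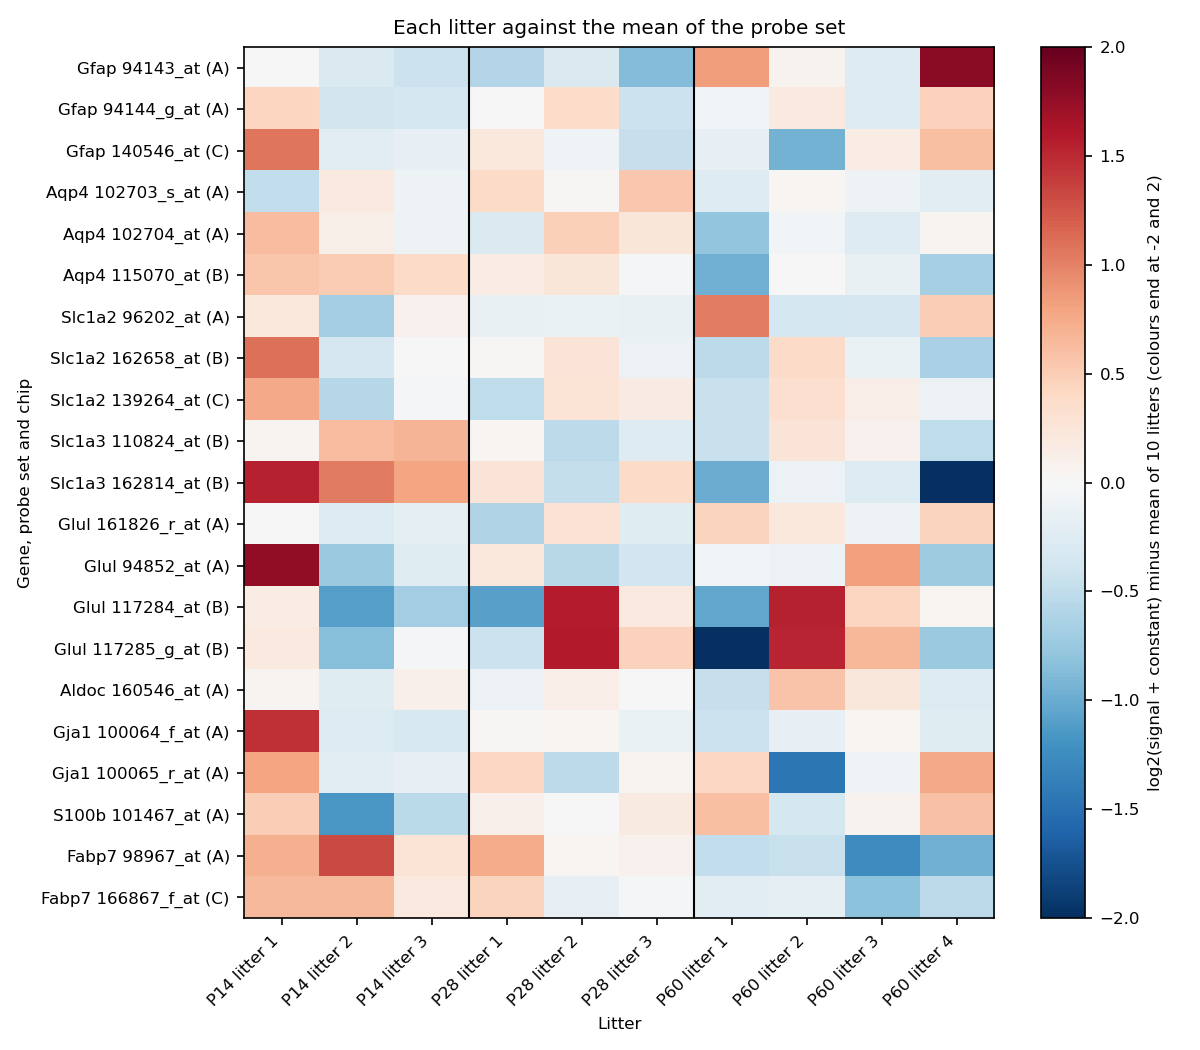
Log2 signal plus constant of each litter minus the mean of the 10 litters, for the 21 tested member probe sets (rows) and the 10 litters by age (columns), with red above and blue below the mean. The column of P14 litter 1 is red for most sets, and the adult columns are blue for Fabp7 and for Slc1a3 162814_at.

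The other genes of these cells gave no calls with all litters. Of 79 other astrocyte genes, 70 were tested with 117 probe sets. None passed limma between P14 and P60 (82 of all 20724 probe sets did). At an unadjusted p under 0.05, 14 were higher and 9 lower at P60, where 7.81% and 7.93% of all tested probe sets were. Of the 117, 57 were lower at P60, against 45.2% of all tested probe sets, and the median log2 change of the 117 was 0.01. The 3 genes with the largest changes were Mt3, which encodes a brain metallothionein, at 1.48 (adjusted p = 0.235), Mertk, a receptor gene for engulfment, at -1.31 (adjusted p = 0.351), and Hepacam, an adhesion protein gene, at -1.17 (adjusted p = 0.409). Mt3 stood at 1336 in P14 litter 1, against 7208 and 10660 in the other P14 litters and 8838 to 20044 at P60. The second probe sets of Mertk and Hepacam stood at 0.31 and 0.07, opposite in sign, and Hepacam lay below the Bacillus level at P28 and P60 on its first.

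Without P14 litter 1, 5 of the 117 probe sets passed, where 2.4% of all tested probe sets did, and these genes were picked after their values were seen. Sparc, a secreted matrix protein gene of astrocytes and vessels, fell (limma without P14 litter 1, adjusted p = 0.0274). Over all litters its mean was 863 ± 144 (SD, n = 3) at P14 and 384 ± 79.8 (SD, n = 4) at P60. Entpd2 (adjusted p = 0.0125) and Slc6a11, a GABA transporter gene (adjusted p = 0.0211), also fell. Ndrg2 (adjusted p = 0.0316) and Clu, the clusterin gene (adjusted p = 0.0356), rose, each on 1 of its 2 sets. With all litters the adjusted p of the 5 ran from 0.0631 to 0.442.

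Of 45 other radial glia and progenitor genes, 33 were tested with 56 probe sets, and none passed with all litters. At an unadjusted p under 0.05, 5 were higher and 6 lower at P60, where 7.81% and 7.93% of all tested probe sets were. The median log2 change from P14 to P60 was 0.14. The largest changes were those of Notch1, a receptor that keeps radial glia in their state, with -1.52 on 97497_at and 1.39 on 162204_r_at (adjusted p = 0.103 and 0.139), which oppose each other. Notch2, its relative, stood at 1.30 (adjusted p = 0.104), and Sfrp1, a Wnt inhibitor gene, at 1.06 (adjusted p = 0.179). Notch2 read 231, 86.4 and 110 at P14, and between 305 and 618 at P60. Without P14 litter 1 it passed (limma, adjusted p = 0.0211). It was 1 of the 56 probe sets to pass there, where 2.4% of all tested probe sets did. The P14 values left in that fit, 86.4 and 110, lay below the median of chip A (207.1), and all P60 values lay above it. The value of 86.4 also lay below the Bacillus level of 98.4.

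The families of the member proteins were also followed with limma between P14 and P60. At an unadjusted p under 0.05, 7.81% of all tested probe sets were higher at P60 and 7.93% lower. Of the other intermediate filament genes 8 were tested with 18 probe sets, none passed (1 at an unadjusted p under 0.05), and the largest changes were those of Nefm at -0.87 (adjusted p = 0.469), Lmna at 0.75 (adjusted p = 0.484) and Nes, the nestin gene, at -0.67 (adjusted p = 0.399). Among 12 other genes of glutamate and glutamine handling, none passed (0 at an unadjusted p under 0.05), and Slc38a2, a glutamine transporter gene, stood at 0.71 (adjusted p = 0.36), Slc17a6 at -0.66 (adjusted p = 0.322) and Slc1a5 at 0.44 (adjusted p = 0.372). The 7 tested connexin and aquaporin genes, again with 0 at an unadjusted p under 0.05, had log2 changes no larger than 0.39, with Gjb5 at 0.39, Aqp6 at 0.39 and Aqp11 at -0.39. Of 20 fatty acid binding protein, S100 and glycolysis genes none passed (4 probe sets higher and 2 lower at an unadjusted p under 0.05), and S100a13 stood at 1.07 (adjusted p = 0.32), Pfkl at 1.06 (adjusted p = 0.194) and Pygb, the brain glycogen phosphorylase gene, at 0.97 (adjusted p = 0.196).

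The probe sets most like the 2 members with the largest F-statistics were sought on the same chip over the 10 litters. Txn1, Ctsl and Polr2j were most like Fabp7 98967_at, with Pearson's r of 0.91, 0.91 and 0.89. Mob4, Ppp3cb and Ccdc127 were most like Slc1a3 162814_at, with r of 0.95 each. These correlations share the arrays and the age groups and are a description. Txn1, the thioredoxin gene, had means of 3564 at P14 and 1916 at P60, a log2 change of -0.88 (limma, adjusted p = 0.0514).

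Markers of other cell types were in part different between the ages. For comparison, 45.2% of all tested probe sets were lower at P60 than at P14. Of 20 probe sets of the myelin list 17 were higher at P60 than at P14, and the median log2 change over the list was 0.51. Mobp (99046_at, adjusted p = 0.0308) and Mag (102405_at, adjusted p = 0.046) rose in limma, each on 1 of its probe sets. Of 13 meningeal and fibroblast probe sets 6 were lower, and Col1a1 (adjusted p = 0.0253, on 1 of its probe sets) and Igf2 (adjusted p = 0.00937) fell. All 4 calls were lost without P14 litter 2, a fit in which 0 of all 20724 probe sets passed. Igf2 was lost only there (limma, adjusted p = 0.0556) among the 10 fits that left out 1 litter. Mobp was lost in 6 of these fits, Mag in 8 and Col1a1 in 8. The mean log2 level over the meningeal list lay between 10.2 and 10.6 in the P14 litters and between 9.63 and 10.3 in those at P60. That over the neuron list lay between 11.02 and 11.49 at P14 and between 10.88 and 11.26 at P60, and 16 of its 20 probe sets were lower, none of them past the threshold. Lists of oligodendrocyte progenitors, microglia, vessel, ependymal and blood cells held no called probe set. All 5 ependymal and choroid plexus sets had higher P60 signals (median log2 change 0.66, smallest adjusted p = 0.227), and so did all 3 blood sets (median 1.04, smallest adjusted p = 0.264). P14 litter 1 had the lowest mean level of the P14 litters in both lists. Without it the medians were 0.37 for the ependymal and choroid plexus list and 0.63 for the blood list. The part of these markers in the lower Fabp7 and Slc1a3 signals was not tested.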

How the data were processed

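The deposited tables hold MAS5 signal intensities, 1 per probe set and array, per the submitters' processing notes with no version named there. The authors had scaled every array to a 2% trimmed mean of 500, as the values show. Detection calls and probe-level data were not used here. Symbols came from the array annotation, updated by gene ID (99.7% matched).

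Before log2 was taken, each kind of chip had its own constant added, equal to the 20th percentile of its values (38.6, 57.8 and 44.0 for A, B and C). Probe sets above the chip's median on at least 3 arrays, array controls left out, were tested with limma 3.58.1 in R 4.3.3 (lmFit, eBayes with a variance trend), chip by chip, with age as the only term and all 10 litters. Benjamini-Hochberg adjustment ran over the 3 chips together. The fit was tested on simulated data. The labels do not say how litters were pooled, so p-values measure the spread between litter samples, and the number of arrays limits precision. Every title opens with the same litter number, so the later number in it was used.

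All member probe sets are named. Of the other lists the genes past the threshold are named, or else the 3 with the largest change from P14 to P60. Members and lists were chosen with earlier results of these data known. Alternatives were constants of 1 and 100, no filter, quantile normalization, no variance trend, array weights, the restricted arrays, the litter number as a block, and each litter left out.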

Additional observations from a re-analysis of the deposited data

Results flagged for a closer look

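A high value in 1 of the 4 P60 litters stood far from the other 3 for 2 member probe sets, by Dixon's test at the 95% level. Aldoc 105965_at read 104.5 in P60 litter 3, and Fabp7 169780_i_at read 148 in the same litter. Neither set was tested for age, both had age means below the Bacillus control level, and chance flags about 1 in 20 groups.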

How the results depend on the processing

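The count of member probe sets past the threshold was 0 in each comparison with all litters. It was 1 between P14 and P60 with a constant of 100 (Fabp7 98967_at; 0.41% of all probe sets passed). It was 2, 7 and 6 with array weights (P28 against P14, P60 against P14, and the 3 ages), where 5.61%, 17.5% and 14.6% of all passed, and 1 between P14 and P28 in the restricted arrays (208 of all 20724). Leaving out 1 litter at a time gave 0 to 1 between P14 and P60, with 1 called without P14 litter 1 (Fabp7 98967_at; 2.4% of all) and without P60 litter 3 (Slc1a3 162814_at; 1.25% of all). Over all 20724 probe sets the P60 against P14 count was 82, and it was 51 without a variance trend, 60 of 36701 with no filter, 441 in the restricted arrays, 3621 with array weights and 0 to 497 with 1 litter left out (0 without P14 litter 2, 497 without P14 litter 1). With the replicate block it was 0 for all probe sets and 0 for the members, and the litter numbers did not pair the samples (correlations of deviations from -0.0626 to 0.132).

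Several changes from P14 to P60 turned in sign, among them those of Gja1 100064_f_at and Slc1a2 162658_at, each -0.49 with all litters. With a constant of 100, Aqp4 102703_s_at stood at -0.00227 and Glul 117285_g_at at 0.0327. With quantile normalization, Aqp4 102703_s_at stood at -0.154, and with the replicate block Glul 117285_g_at at 0.161. Array weights gave Gfap 140546_at 0.0786, Aqp4 102703_s_at -0.194, Glul 94852_at 0.251, Aldoc 160546_at -0.0241, Gja1 100064_f_at 0.0245 and Gja1 100065_r_at 0.318. The restricted arrays gave Gfap 140546_at 0.383, Aqp4 102703_s_at -0.0715, Slc1a2 96202_at -0.0491, 162658_at 0.287 and 139264_at 0.158, Glul 94852_at 0.85 and 117285_g_at 1.53, and Gja1 100064_f_at 0.227. With 1 litter left out, ranges were -0.551 to 0.1 (Gfap 140546_at), -0.178 to 0.164 (Aqp4 102703_s_at), -0.381 to 0.278 (Slc1a2 139264_at), -0.781 to 0.479 (Glul 94852_at), -0.59 to 0.709 (Glul 117285_g_at), -0.138 to 0.201 (Aldoc), -0.793 to 0.0911 (Gja1 100064_f_at) and -0.509 to 0.228 (Gja1 100065_r_at). The cause was not tested. The log2 changes of Fabp7 and Slc1a3 from P14 to P60 kept their sign in all 18 alternatives. So did those of Gfap 94143_at and 94144_g_at, Aqp4 102704_at and 115070_at, Glul 161826_r_at and 117284_at, and S100b 101467_at. The P14 to P60 estimate cannot move with no filter, with no variance trend or with a P28 litter left out. Those fits do not check the sign.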
